A study of Mus musculus with 6 samples.

Results

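Epithelial cells of the choroid plexus were examined in 6 droplet libraries of dissociated mouse brain. Barcodes stayed in with 500 UMIs or more (unique molecular identifiers, each standing for 1 captured transcript), 300 genes or more, and a mitochondrial share of UMIs up to 15%. A kept barcode was a member when at least 3 of 8 choroid plexus genes had a UMI in it (Kl, Prlr, Cldn2, Folr1, Kcne2, Clic6, Otx2 and Slc4a5). It also had to show fewer than 2 of 5 genes of other cells, namely P2ry12 of microglia, Cldn5 of endothelium, Cd3e of T cells, Col1a1 of fibroblasts and Abcc9 of mural cells. The rule took 15554 of 94144 kept barcodes, or 16.5%. Members were thus chosen by the UMIs of these 13 genes, whose levels are not tested.

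The libraries fell into 3 groups of 2: TRPM2 Mg KO with bilirubin (KO bilirubin), wild type with bilirubin (WT bilirubin) and wild type with vehicle (WT vehicle). All came from fresh dissociated suspensions run on droplet 3′ kits. No group of the knockout with vehicle was among the samples, so genotype and bilirubin are both different between KO bilirubin and WT vehicle. The sources used here do not give what "Mg" stands for, the bilirubin dose, its duration, the brain region, or the age and sex of the animals. The labels do not tie a library to an animal, and every p-value covers the spread between libraries only, whatever its source.

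The choroid plexus is a folded epithelium in the brain ventricles that secretes cerebrospinal fluid and forms the barrier between blood and that fluid. Ion pumps, cotransporters, carbonic anhydrases and the water channel Aqp1 move salt and water across it, and tight junctions seal it. It also makes carrier proteins, above all transthyretin (Ttr), which carries thyroid hormone and, with retinol-binding protein, retinol. Bilirubin is the breakdown product of haem, and Trpm2 is a calcium-permeable cation channel opened by ADP-ribose and oxidative stress.

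The members matched their label in genes that the rule did not use. Ttr had at least 1 UMI in every member and averaged 145380 CPM over the libraries, against 30792 CPM in all other kept barcodes. Barcodes with 0 markers and fewer than 2 other-cell genes had a median Ttr share of 0.479% of UMIs. Detection of Ttr alone is therefore weak support for the label. CPM scales a gene's UMI count to the same total of UMIs in every library. Among genes outside the rule found in at least 25% of members, the highest ratio to the other barcodes belonged to F5 (coagulation factor V) at 6.04. Next came Sostdc1, a secreted BMP and Wnt antagonist, at 5.54 and Enpp2, which makes lysophosphatidic acid, at 5.47. Ace, the angiotensin-converting enzyme, followed at 5.30, and the potassium channel Kcnj13 stood at 4.53. The 15 leading genes also included the lactate carrier Slc16a8, the sulphate carrier Slc13a4 and the carbonic anhydrase Car12.

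Ttr followed the number of choroid plexus genes detected. Among barcodes with fewer than 2 of the other-cell genes, its median share of a barcode's UMIs was 0.479% with 0 markers, 1.37% with 1 and 5.91% with 2. It was 9.51% with 3 markers, just inside the rule, 13.4% with 4 and 19.5% in the 504 barcodes with all 8. Depth moved along with it. Barcodes with 2 markers had a median of 2158 UMIs, those with 3 had 2861, and those with 8 had 10958.

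**Figure D1:**
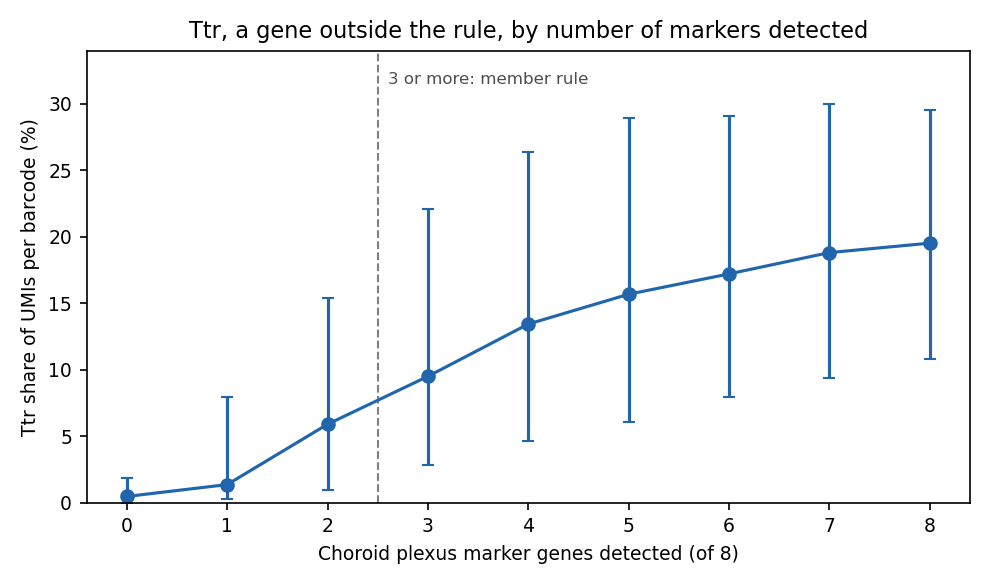
Share of a barcode's UMIs that came from Ttr (y axis, %) by the number of the 8 choroid plexus marker genes with a UMI (x axis), over all libraries. Points are medians and bars run from the 10th to the 90th percentile of barcodes. The median climbs from 0.479% at 0 markers to 19.5% at 8, with no gap at the dashed line between 2 and 3 markers where membership starts.

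Hox genes were almost undetected in the members and in the other barcodes, while the forebrain gene Six3 was found in members. Hox genes are active in hindbrain tissue and off in forebrain tissue, while Six3 and Emx2 are forebrain transcription factors. The 11 Hox genes listed had a UMI in 13 of 15554 members (0.0836%) and in 117 of 78590 other kept barcodes. The share of other barcodes ran from 0.0965% in WT vehicle replicate 1 to 0.277% in WT bilirubin replicate 2. Near absence of Hox RNA was thus not particular to the members. By library, 2 and 1 such members were found in KO bilirubin, 3 and 2 in WT bilirubin, and 0 and 5 in WT vehicle. The 0 of 320 members in WT vehicle replicate 1 allows a share of up to 0.938% of members with such a UMI, which at a median of 2712 UMIs does not limit the share that express the genes. Six3 had 1276 UMIs in members, with 10.4 and 17.3 CPM in KO bilirubin, 14.9 and 22.1 CPM in WT bilirubin, and 15.9 and 12.4 CPM in WT vehicle. Six3 averaged 2.41 times its level in the other barcodes. Emx2 stood at 0.824 times its level there.

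The share of choroid plexus cells differed more between the 2 WT vehicle libraries than between any 2 group means. Members were 14.0% (2273 of 16274) and 13.1% (541 of 4134) of kept barcodes in KO bilirubin. They were 20.1% (4198 of 20834) and 32.8% (2819 of 8593) in WT bilirubin, and 1.60% (320 of 20003) and 22.2% (5403 of 24306) in WT vehicle. The exact 95% Clopper-Pearson intervals, which cover counting error only, were 13.4 to 14.5% and 12.1 to 14.2% in KO bilirubin, 19.6 to 20.7% and 31.8 to 33.8% in WT bilirubin, and 1.43 to 1.78% and 21.7 to 22.8% in WT vehicle. The WT vehicle libraries held the lowest share and the second highest. Both KO bilirubin libraries lay between them, and WT bilirubin had 1 library between them and 1 above.

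Mean shares were 13.5% ± 0.623 in KO bilirubin, 26.5% ± 8.95 in WT bilirubin and 11.9% ± 14.6 in WT vehicle (SD, n = 2 each). KO bilirubin was 12.95 percentage points below WT bilirubin (two-sided exact permutation p = 0.333), with both KO libraries below both WT bilirubin libraries. WT bilirubin was 14.6 points above WT vehicle (exact permutation p = 0.667), and KO bilirubin was 1.61 points above WT vehicle (exact permutation p = 1). With 2 libraries against 2, no exact test can go below 0.333. A share says how the captured barcodes were made up and cannot tell fewer choroid plexus cells from more of the others.

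**Figure D2:**
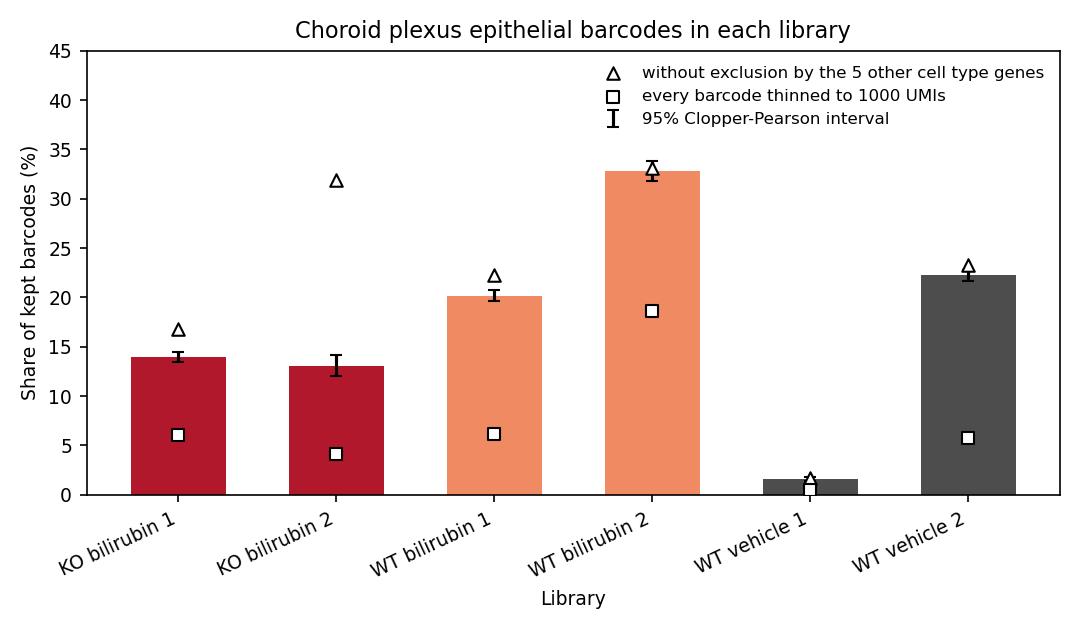
Members as a share of kept barcodes (y axis, %) in each library (x axis), as bars with 95% Clopper-Pearson intervals. Triangles show the share without the exclusion by other-cell genes and squares the share after thinning each barcode to 1000 UMIs. WT vehicle replicate 1 is lowest at 1.60%, WT bilirubin replicate 2 highest at 32.8%, and only in KO bilirubin replicate 2 does the triangle stand far above its bar, at 31.9%.

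Members were deep cells, and depth bears on a rule that counts detected genes. Their median was 6054 and 5288 UMIs in KO bilirubin, 5568.5 and 4082 in WT bilirubin, and 2712 and 4216 in WT vehicle. The other barcodes had medians between 1145 and 1708 UMIs. In WT vehicle replicate 1, 63.4% of members had exactly 3 markers, against 19.7 to 32.8% in the other libraries. After thinning every barcode to 1000 UMIs and leaving out 18764 shallower barcodes, the shares were 6.03% and 4.15% in KO bilirubin, 6.14% and 18.7% in WT bilirubin, and 0.479% and 5.76% in WT vehicle. Without thinning, the same barcodes gave 16.9% and 16.04% in KO bilirubin, 23.9% and 44.6% in WT bilirubin, and 2.31% and 25.4% in WT vehicle. At equal depth WT bilirubin replicate 2 remained the highest library and WT vehicle replicate 1 the lowest. The mitochondrial limit moved the shares more in some libraries than in others. With at most 5% mitochondrial UMIs they were 28.5% and 16.8% in KO bilirubin, 47.2% and 32.6% in WT bilirubin, and 1.60% and 22.4% in WT vehicle, so WT bilirubin replicate 1 was then the highest.

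RNA of the choroid plexus was also found where no cell of it was called. In barcodes with 0 of the 8 markers, the median Ttr share was 0.965% and 0.873% in KO bilirubin, 0.879% and 0.619% in WT bilirubin, and 0.083% and 0.543% in WT vehicle. In members it was 14.3% and 11.3% in KO bilirubin, 15.6% and 19.7% in WT bilirubin, and 9.16% and 12.3% in WT vehicle. WT vehicle replicate 1, the library with the fewest members, was lowest on both measures.

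The exclusion by other-cell genes removed very different numbers of barcodes. Of barcodes with at least 3 markers it removed 453 (16.6%) and 777 (59.0%) in KO bilirubin, 443 (9.55%) and 25 (0.879%) in WT bilirubin, and 12 (3.61%) and 262 (4.62%) in WT vehicle. In KO bilirubin replicate 2 the removed barcodes had a median of 16869 UMIs and of 6.47% Ttr. Cldn5 was found in 99.1% of them and P2ry12 in 94.6%. Without the exclusion the shares were 16.8% and 31.9% in KO bilirubin, 22.3% and 33.1% in WT bilirubin, and 1.66% and 23.3% in WT vehicle, so the KO and WT bilirubin libraries then overlapped. Whether such barcodes held several cells was not tested.

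Members still carried RNA of other cell types. Within members, 51.1% and 58.2% had 1 of the 5 other-cell genes in KO bilirubin, 43.1% and 14.8% in WT bilirubin, and 27.2% and 32.9% in WT vehicle. The summed level of 7 neutrophil markers was 90.1 and 341 CPM in KO bilirubin, 403 and 1245 in WT bilirubin, and 21.6 and 282 in WT vehicle, at 8.64 to 38.4% of its level in the other barcodes. The 7 endothelial markers summed to 605 and 1005 CPM in KO bilirubin, 489 and 110 in WT bilirubin, and 210 and 184 in WT vehicle. The 5 erythroid markers, haemoglobins and Alas2, summed to 11476 and 447 CPM in KO bilirubin, 2432 and 2070 in WT bilirubin, and 19466.5 and 15949 in WT vehicle. The 9 neuronal markers summed to 1576 and 3143 CPM in KO bilirubin, 970 and 1101 in WT bilirubin, and 9594 and 2908 in WT vehicle. Of the 12 marker lists, none but the ependymal list stood above its level in the other barcodes in any library, and no listed marker was at 0 in all libraries. In at least 1 library, members had 0 UMIs of 2 neutrophil, 2 T and NK cell, 4 macrophage, 1 fibroblast and 1 erythroid marker. The part of this RNA in the gene comparisons was not tested beyond the values given with them.

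**Figure D3:**
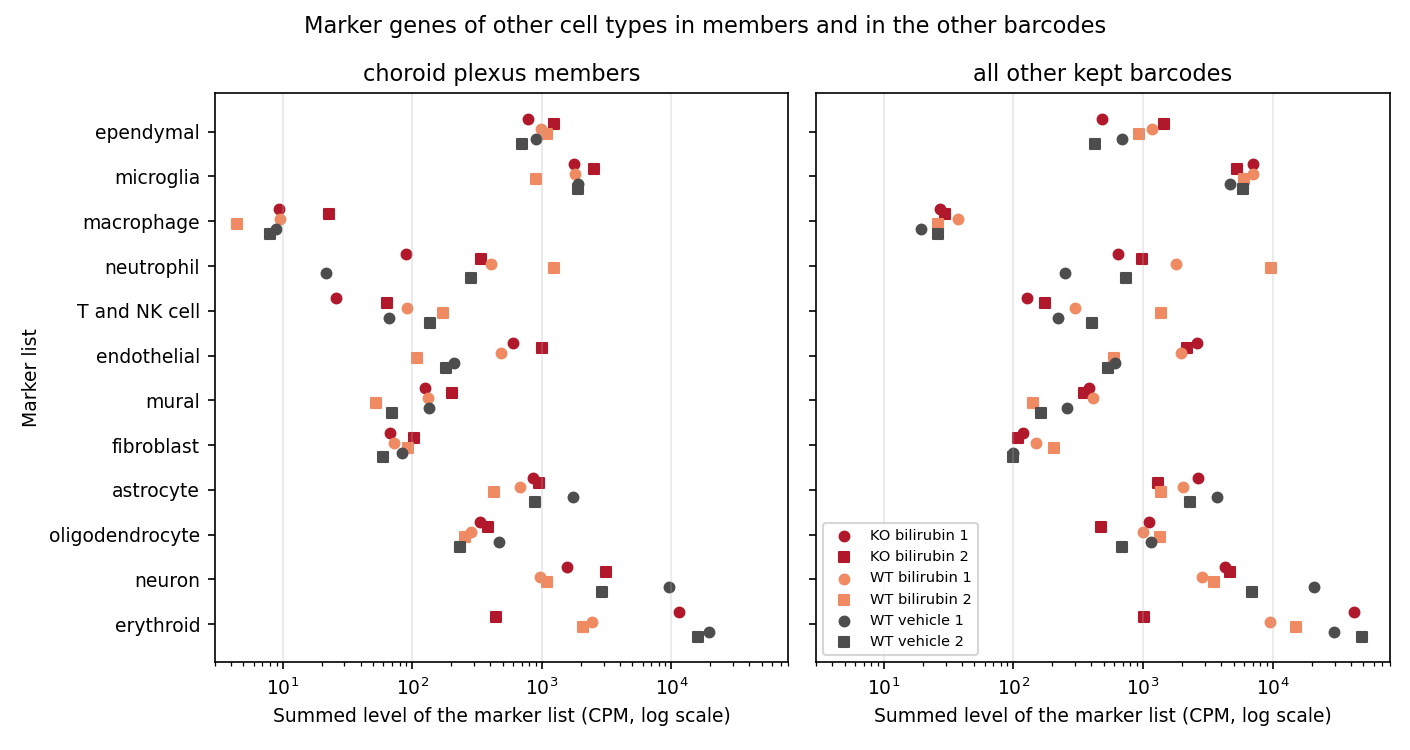
Summed level of each list of marker genes of other cell types (x axis, CPM on a log scale) in choroid plexus members (left) and in all other kept barcodes (right), with a point for each library. The neutrophil list is highest in WT bilirubin replicate 2 on both sides, at 1245 CPM in members, and the neuronal list in members is highest in WT vehicle replicate 1 at 9594 CPM.

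Bilirubin in wild type was compared with vehicle first. In members, 2 of 16198 genes passed edgeR's quasi-likelihood test at a Benjamini-Hochberg adjusted p of 0.05, or 0.0123%, with 1 higher (0.00617%) and 1 lower (0.00617%). Gpx3, a secreted glutathione peroxidase that reduces peroxides outside cells, rose. It had 15.4 and 17.8 CPM in WT bilirubin and 3.73 and 1.82 CPM in WT vehicle, and KO bilirubin had 3.14 and 4.85. Both WT bilirubin libraries lay above the other 4. Gpx3 averaged 1.63 times its level in the other barcodes. Those had 3.46 and 6.59 CPM in KO bilirubin, 7.69 and 4.04 in WT bilirubin, and 4.16 and 2.66 in WT vehicle. In members Gpx3 was under 5 CPM in each KO bilirubin and WT vehicle library. It thus met the mean of 5 CPM required for naming only through WT bilirubin. The log2 fold change of WT bilirubin over WT vehicle was 2.997 (SE 0.43, adjusted p = 0.0209), and the vehicle levels rested on 4 and 48 UMIs. In all other kept barcodes the same comparison gave 0.80 (SE 0.46, adjusted p = 0.720), and the difference between members and the rest was 2.07 (SE 0.44) with an unadjusted p of 0.000264 from edgeR and an adjusted p of 0.927. The predicted gene Gm17167 fell, with 0 and 1 UMI in WT bilirubin and 6 and 95 UMIs in WT vehicle (adjusted p = 0.00832), and it had a log2 fold change of -7.27 outside the members.

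The Gpx3 call did not pass without WT vehicle replicate 1 (adjusted p = 0.0531), without WT vehicle replicate 2 (0.287) or without the exclusion by other-cell genes (0.202), within a range of 7.89e-08 to 0.287 over the alternatives. Gm17167 did not pass without WT vehicle replicate 2 (0.163) or without the exclusion (0.202). The number of genes that passed was 1 and 3 without WT vehicle replicates 1 and 2, 469 and 189 without WT bilirubin replicates 1 and 2, and 81 and 135 without KO bilirubin replicates 1 and 2.

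Below the adjusted threshold, 1940 genes had an unadjusted p under 0.05 (12%), 4.42% higher and 7.56% lower. Among the 3809 genes with a mean level above that of the other barcodes, whatever the size of the ratio, 384 were higher (10.1%) and 12 lower (0.315%). That set is not limited to choroid plexus genes, since it holds 6 of 9 ependymal markers and 21 of 22 nuclear genes of the respiratory chain. It was picked by member levels averaged over all 6 libraries, so a gene can enter through the group where it is high. Its counts by direction are therefore not independent of the choice, in any of the comparisons. None of the following passed adjustment. Pcolce, a secreted enhancer of procollagen processing, had 263 and 140 CPM in WT bilirubin and 56.9 and 59.5 CPM in WT vehicle (log2 fold change 1.79, SE 0.39, adjusted p = 0.141). Sod3, the extracellular superoxide dismutase, had 54.2 and 33.2 CPM in WT bilirubin and 15.9 and 14.4 CPM in WT vehicle (log2 fold change 1.55, SE 0.37, adjusted p = 0.141). Alas1, the first enzyme of haem synthesis, had 98.9 and 100.3 CPM in WT bilirubin and 38.3 and 42.0 CPM in WT vehicle (log2 fold change 1.30, SE 0.31, adjusted p = 0.141). Lbp, which binds bacterial lipopolysaccharide, had 322 and 169 CPM in WT bilirubin and 59.7 and 100.2 CPM in WT vehicle (log2 fold change 1.59, SE 0.41, adjusted p = 0.147). The groups did not overlap in these genes, but the genes were picked by the smallest p. The share of genes without overlap among all tested was not counted. Outside the members the log2 fold change was 1.37 for Pcolce (SE 0.48), 0.58 for Sod3 (SE 0.42), 0.90 for Alas1 (SE 0.37) and 1.43 for Lbp (SE 0.49). For none of them did the difference between members and the rest pass adjustment in edgeR (adjusted p = 0.927 to 0.928). Lcn2, an iron-binding acute phase protein that neutrophils also make, had 31.9 and 24.2 CPM in WT bilirubin and 2.80 and 5.80 CPM in WT vehicle, and stood at 0.190 times its level in the other barcodes. Its log2 fold change was 2.44 in members (SE 0.52) and 3.63 outside them (SE 0.74). Marker lists of other cells also differed in this comparison of members. The neutrophil list was higher in WT bilirubin, with a median log2 fold change of 2.15 and 5 of 7 genes at an unadjusted p under 0.05. The neuronal list had a median of -1.56 with 9 of 9 such genes, all lower, and the erythroid list a median of -2.88 with 5 of 5, all lower. Their part in the shift of the other genes was not tested.

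The knockout with bilirubin was then compared with wild type with bilirubin. In members 3 of 16198 genes passed (0.0185%), and all 3 were lower in KO bilirubin. Tmsb15b1, a thymosin that binds actin monomers, had 2.30 and 2.97 CPM in KO bilirubin and 11.6 and 22.02 CPM in WT bilirubin, with 21.5 and 15.95 in WT vehicle. Both KO libraries lay below the 4 wild-type libraries. The log2 fold change of KO over WT bilirubin was -2.73 (SE 0.40, adjusted p = 0.0211). Cebpb, a transcription factor of acute phase and myeloid genes, had 6.65 and 10.5 CPM in KO bilirubin and 51.2 and 34.8 CPM in WT bilirubin, with 28.0 and 20.0 in WT vehicle (log2 fold change -2.38, SE 0.36, adjusted p = 0.0211). Camp, the cathelicidin of neutrophil granules, had 0.846 and 2.70 CPM in KO bilirubin and 36.2 and 113 CPM in WT bilirubin (log2 fold change -5.76, SE 0.77, adjusted p = 0.0163).

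Of these genes only Tmsb15b1 was higher in members than in the other barcodes, at 1.20 times. Cebpb stood at 0.368 times and Camp at 0.178 times. Over all genes, 692 had an unadjusted p under 0.05 (4.27%), 2.94% higher and 1.33% lower. Among the 3809 genes higher in members than elsewhere, 4 were higher (0.105%) and 109 lower (2.86%) in KO bilirubin. That set was picked with the levels of these same libraries included. Outside the members the log2 fold change was -2.60 for Tmsb15b1 (SE 0.34) and -2.76 for Cebpb (SE 0.32), and neither difference between members and the rest passed adjustment (adjusted p = 0.986 and 0.845). Camp had -2.12 outside the members, and there the difference of -3.11 (SE 0.46) passed with an adjusted p of 0.0342. Cxcl2, a neutrophil chemokine, was the other gene whose 2 effects differed, by 2.79 (SE 0.37, adjusted p = 0.0199). In members it had 7.74 and 26.1 CPM in KO bilirubin and 4.57 and 9.82 CPM in WT bilirubin, against 10.3 and 22.3 CPM in KO bilirubin and 24.6 and 93.6 CPM in WT bilirubin outside them. The neutrophil list was lower in KO bilirubin throughout the members, with a median log2 fold change of -2.39 and 7 of 7 genes at an unadjusted p under 0.05. The T and NK cell list had a median of -1.72 and also 7 of 7 such genes. The endothelial list went the other way, with a median of 1.32 and 5 of 6, as did the neuronal list, with 0.78 and 4 of 9, and the erythroid list, with 1.35 and 1 of 5.

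Bex4, a small brain-expressed protein of the X chromosome, had 7.07 and 12.9 CPM in KO bilirubin, 44.8 and 43.7 CPM in WT bilirubin, and 37.3 and 63.2 CPM in WT vehicle. Both KO libraries lay below the 4 wild-type ones. Against WT bilirubin its log2 fold change was -2.21 (SE 0.37, adjusted p = 0.0504), and against WT vehicle it passed at -2.45 (SE 0.37, adjusted p = 0.0285). Outside the members KO over WT bilirubin gave -0.38 (SE 0.54), and the difference of -1.64 (SE 0.33) had an adjusted p of 0.502. For Gpx3, called in the bilirubin comparison, KO over WT bilirubin gave -2.14 (SE 0.37, adjusted p = 0.0565). That comparison shares the WT bilirubin libraries with the first.

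Bex4 and Tmsb15b1 both lie on chromosome X, with 18 coding genes between them in RefSeq's order. Of these, 11 were tested and none passed. Only Tmsb15b2, a near copy of Tmsb15b1, had an unadjusted p under 0.05, with 9.85 and 15.9 CPM in KO bilirubin and 20.6 and 31.1 CPM in WT bilirubin (log2 fold change -1.04, adjusted p = 0.938). The sources used here do not say how reads were split between such copies, so the levels of Tmsb15b1 and Tmsb15b2 are uncertain.

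**Figure D4:**
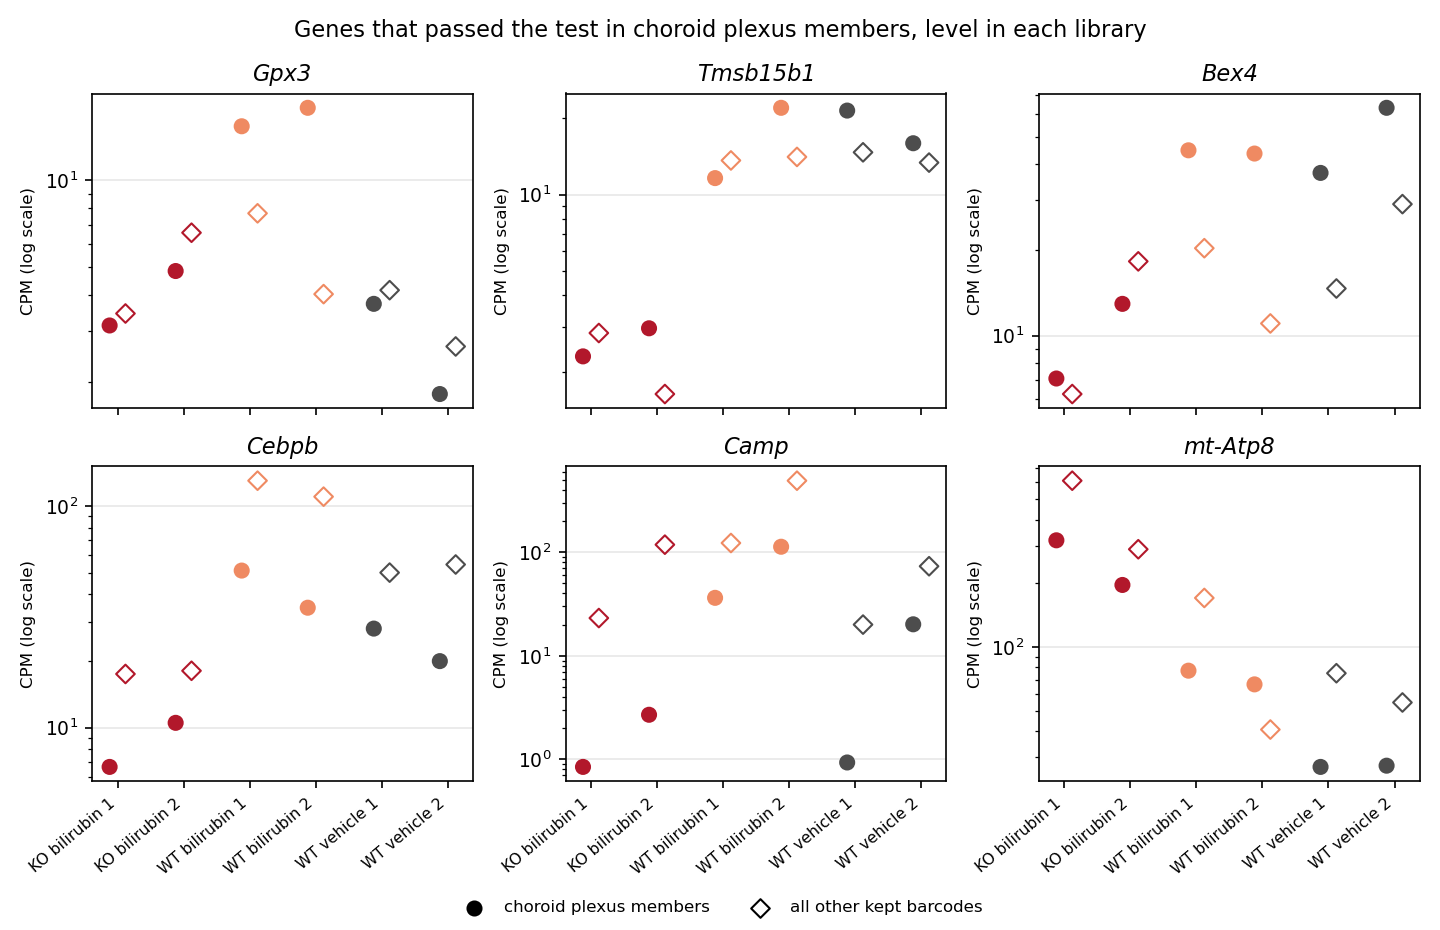
Level (y axis, CPM on a log scale) of 6 genes that passed the test in members, in each library (x axis), in choroid plexus members (filled circles) and in all other kept barcodes (open diamonds). Gpx3 is highest in the WT bilirubin members at 15.4 and 17.8 CPM Tmsb15b1 and Cebpb are low in KO bilirubin on both sides, and Bex4 is low in KO bilirubin members at 7.07 and 12.9 CPM.

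Tmsb15b1 and Cebpb kept their direction under all alternatives tried, with log2 fold changes of -3.17 to -2.21 and of -2.74 to -2.04. They did not pass without WT vehicle replicate 2 (adjusted p = 0.128 each), without KO bilirubin replicate 1 (0.0993 each) or with only the 4 libraries compared (0.154 each), nor without the exclusion by other-cell genes (0.1000 for Tmsb15b1 and 0.520 for Cebpb). Camp passed whichever library was left out. It did not pass with DESeq2 (0.441) or without the exclusion, where its log2 fold change was -0.95 (adjusted p = 0.878). The number of genes that passed was 12 and 13 without KO bilirubin replicates 1 and 2, 377 and 22 without WT bilirubin replicates 1 and 2, and 4 and 1 without WT vehicle replicates 1 and 2.

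The knockout with bilirubin was last set against wild type with vehicle. Here 4 of 16198 genes passed (0.0247%), 2 higher and 2 lower. The lower genes were Tmsb15b1 (log2 fold change -2.82, SE 0.42, adjusted p = 0.0285) and Bex4. The higher genes were mt-Atp8 and mt-Nd4l, subunits of ATP synthase and of complex I encoded by the mitochondrial genome. mt-Atp8 had 319 and 196 CPM in KO bilirubin, 77.2 and 66.5 CPM in WT bilirubin, and 27.1 and 27.4 CPM in WT vehicle. The 3 groups did not overlap, and the log2 fold change of KO bilirubin over WT vehicle was 3.24 (SE 0.35, adjusted p = 0.00084). mt-Nd4l had 1362 and 827 CPM in KO bilirubin, 902 and 412 CPM in WT bilirubin, and 214 and 198 CPM in WT vehicle (log2 fold change 2.41 of KO bilirubin over WT vehicle, SE 0.38, adjusted p = 0.0357). Both genes overlap a neighbour on the mitochondrial genome, mt-Atp6 and mt-Nd4, so the split of reads between them is uncertain. Outside the members the fold changes were 2.80 (SE 0.70) and 2.29 (SE 0.93), and neither difference passed (adjusted p = 1.00 each).

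Mitochondrial RNA as a whole moved with the libraries. The median share of mitochondrial UMIs in members was 2.63% and 2.70% in KO bilirubin, 3.41% and 0.777% in WT bilirubin, and 0.622% and 0.551% in WT vehicle. In the other barcodes it was 6.23% and 4.002% in KO bilirubin, 8.30% and 0.610% in WT bilirubin, and 1.08% and 0.945% in WT vehicle. WT bilirubin replicate 2 therefore stood with the vehicle libraries, and replicate 1 with the knockout. Of the 13 mitochondrially encoded genes, 13 had an unadjusted p under 0.05 for KO bilirubin over WT vehicle with a median log2 fold change of 1.97, 12 for WT bilirubin over WT vehicle with 1.54, and 3 for KO over WT bilirubin with 0.43. Over all genes tested those medians were 0.02, 0.04 and -0.00. Of all genes, 6.03%, 12% and 4.27% were at that p in the same order, with 3.45%, 4.42% and 2.94% higher. The 22 nuclear genes of the respiratory chain gave medians of -0.31, -0.05 and -0.19, with 0, 2 and 0 genes at an unadjusted p under 0.05. Whether tissue handling had a part in the mitochondrial share was not tested.

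In the comparison of KO bilirubin with WT vehicle, 976 genes had an unadjusted p under 0.05 (6.03%), 3.45% higher and 2.57% lower. Of the 3809 genes higher in members, a set picked with these same libraries included, 163 were higher (4.28%) and 29 lower (0.761%). Without WT vehicle replicate 2 no gene passed in edgeR, with 1308 at an unadjusted p under 0.05, and the adjusted p was 0.200 for mt-Atp8, 0.639 for mt-Nd4l and Bex4, and 0.380 for Tmsb15b1. With all libraries, DESeq2 called 13 genes. Without the exclusion by other-cell genes, mt-Atp8 alone passed in edgeR, while Tmsb15b1, Bex4 and mt-Nd4l did not. Without WT vehicle replicate 1, mt-Nd4l (0.536) and Tmsb15b1 (0.0940) did not pass, and without KO bilirubin replicate 1, Bex4 (0.0625) and Tmsb15b1 (0.0509) did not. The number of genes that passed was 49 and 6 without KO bilirubin replicates 1 and 2, 156 and 158 without WT bilirubin replicates 1 and 2, and 2 and 0 without WT vehicle replicates 1 and 2.

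Genes of fluid secretion were described as a list, with the rule's own genes left out. Of the 20 tested, none passed adjustment in any comparison. WT bilirubin over WT vehicle had a median log2 fold change of 0.59, with 17 of 20 above 0 and 5 higher at an unadjusted p under 0.05, where the share of higher genes at that p was 4.42% over all genes and 10.1% over those above their level elsewhere. KO over WT bilirubin had a median of -0.41, with 16 of 20 below 0 and 5 lower at an unadjusted p under 0.05, against shares of lower genes of 1.33% and 2.86%. KO bilirubin over WT vehicle had a median of 0.09 with 1 gene higher at that p, against shares of higher genes of 3.45% and 4.28%. Those medians stand beside ones near 0 over all genes, and beside 0.28, -0.15 and 0.11 over the 3809 genes higher in members than elsewhere. The 3809 genes were picked with the levels of these same libraries included, so they are not an independent background. The first 2 comparisons share the WT bilirubin libraries.

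Aqp1, the apical water channel, had 29.0 and 24.3 CPM in KO bilirubin, 44.1 and 70.9 CPM in WT bilirubin, and 20.5 and 36.1 CPM in WT vehicle. Its log2 fold change was -1.10 for KO over WT bilirubin (SE 0.34, adjusted p = 0.850) and 0.94 for WT bilirubin over WT vehicle (SE 0.34, adjusted p = 0.274). Slc12a2, the sodium-potassium-chloride cotransporter, had 78.0 and 84.4 CPM in KO bilirubin, 124 and 182 CPM in WT bilirubin, and 103 and 97.6 CPM in WT vehicle. Kcnj13, an inward rectifier potassium channel, had 217 and 113 CPM in KO bilirubin, 171 and 189 CPM in WT bilirubin, and 46.7 and 101 CPM in WT vehicle. Trpm3, a cation channel whose gene is strongly used in this epithelium, had 241 and 186 CPM in KO bilirubin, 295 and 455 CPM in WT bilirubin, and 276 and 193 CPM in WT vehicle. In Aqp1, Slc12a2 and Trpm3 both KO libraries lay below both WT bilirubin libraries, and in Kcnj13 WT vehicle lay below the other groups. Each gene was picked by the smallest p of a list, Trpm3 of a list of TRP channels, and none passed adjustment. The share of all genes with such a separation was not counted.

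Secreted carriers gave medians of 0.48 for WT bilirubin over WT vehicle, -0.13 for KO over WT bilirubin and 0.24 for KO bilirubin over WT vehicle, with none of 19 passing. Ttr had 152399 and 116541 CPM in KO bilirubin, 169134 and 199378 CPM in WT bilirubin, and 96516 and 144545 CPM in WT vehicle. Its log2 fold change was 0.61 for WT bilirubin over WT vehicle (SE 0.26, adjusted p = 0.359), -0.45 for KO over WT bilirubin (SE 0.26) and 0.16 for KO bilirubin over WT vehicle (SE 0.26), a sign that turned without WT vehicle replicate 1 and without KO bilirubin replicate 1. Cst3, a secreted protease inhibitor that microglia make in large amounts, had 10506 and 18071 CPM in KO bilirubin, 10452 and 6632 CPM in WT bilirubin, and 24897 and 20090 CPM in WT vehicle, and stood at 0.439 times its level in the other barcodes. It was lower in each WT bilirubin library than in each WT vehicle library without passing (log2 fold change -1.40, SE 0.32, adjusted p = 0.141). Cst3 was picked by the smallest p of its list. The 7 microglial markers tested in members were all lower in that comparison as well, with a median of -0.48.

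**Figure D5:**
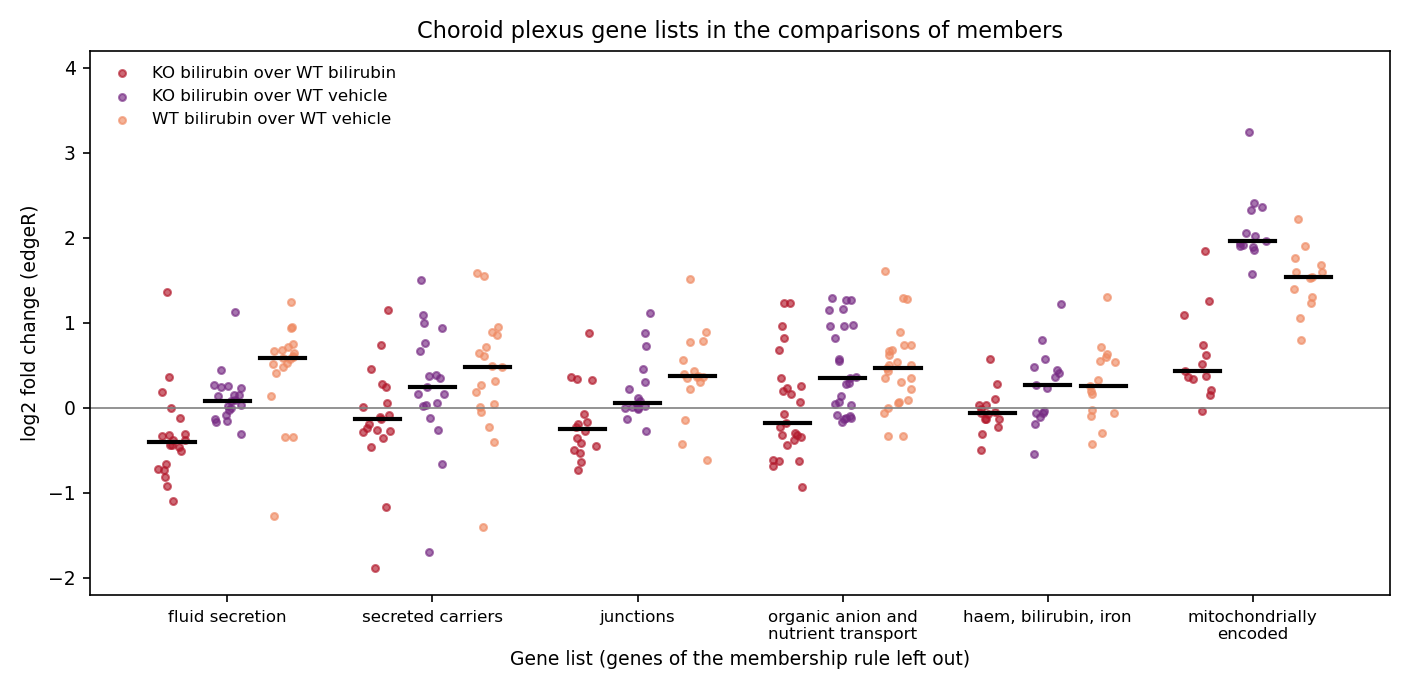
log2 fold change from edgeR (y axis) of each gene tested in 6 gene lists (x axis) for KO bilirubin over WT bilirubin, KO bilirubin over WT vehicle and WT bilirubin over WT vehicle. Points are genes and black bars are medians. Fluid secretion genes have a median of -0.41 in the first and 0.59 in the third comparison, and all 13 mitochondrially encoded genes lie above 0 in the second.

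Junction genes gave medians of 0.37, -0.25 and 0.06 over 16 genes for WT bilirubin over WT vehicle, KO over WT bilirubin and KO bilirubin over WT vehicle, in that order. Ocln, the tight junction protein occludin, had 23.9 and 24.0 CPM in KO bilirubin, 17.7 and 20.4 CPM in WT bilirubin, and 10.3 and 11.3 CPM in WT vehicle, with no overlap between groups and no pass (log2 fold change 1.12 of KO bilirubin over WT vehicle, SE 0.32, adjusted p = 0.696). It stood at 0.923 times its level in the other barcodes, where that fold change was 1.57 (SE 0.37). The endothelial list in members was also higher in that comparison, with a median log2 fold change of 1.85. Of its 6 tested genes, 6 had an unadjusted p under 0.05. The T and NK cell list was lower, with a median of -1.52 and 6 of 7 such genes. Over all genes tested in that comparison, 3.45% were higher and 2.57% lower at that p. The part of these 2 lists in the Ocln difference was not tested. Ocln was picked by the smallest p of its list, and the share of all genes without overlap between groups was not counted. The 25 carriers of organic anions and nutrients gave medians of 0.47, -0.18 and 0.35, again with no pass. Slc16a8, which exports lactate, had 97.0 and 41.0 CPM in KO bilirubin, 86.1 and 90.2 CPM in WT bilirubin, and 14.9 and 38.0 CPM in WT vehicle, and only the vehicle libraries lay below the rest. Slc16a8 too was picked by the smallest p of its list.

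Of 19 genes listed for haem, bilirubin and iron, 15 could be tested and none passed. Their medians were 0.25 for WT bilirubin over WT vehicle, -0.06 for KO over WT bilirubin and 0.27 for KO bilirubin over WT vehicle. Hmox1, the haem oxygenase that makes biliverdin, had 21.2 and 19.4 CPM in KO bilirubin, 27.3 and 13.5 CPM in WT bilirubin, and 8.40 and 27.9 CPM in WT vehicle, so all groups overlapped. Blvra, the reductase that makes bilirubin, had 54.6 and 41.8 CPM in KO bilirubin, 57.6 and 43.1 CPM in WT bilirubin, and 28.0 and 48.8 CPM in WT vehicle. Ugt1a1, the enzyme that conjugates bilirubin in liver, had no UMI in any member. The 22 antioxidant genes driven by Nrf2 gave medians of 0.13, -0.17 and 0.07, and the 21 interferon genes gave 0.14, 0.28 and 0.53.

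Trpm2, the gene named in the knockout label, was rare in the epithelium. Members held 35 and 13 of its UMIs in KO bilirubin, 66 and 28 in WT bilirubin, and 8 and 81 in WT vehicle. These came to 2.12 and 3.50 CPM in KO bilirubin, 2.51 and 2.02 CPM in WT bilirubin, and 7.47 and 3.07 CPM in WT vehicle. The other barcodes had 6.15 to 13.2 CPM, and Trpm2 in members was 0.356 times their mean. Its log2 fold change for KO over WT bilirubin was 0.20 (SE 0.49, adjusted p = 1.00). A 3′ count outside the deleted part of a gene neither checks nor contradicts the label.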

How the data were processed

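The authors deposited, per library, raw UMI counts as a sparse matrix with its barcodes and gene names; the deposited name tables hold other content and no measurement. Cell Ranger 8.0.0 and Scanpy 1.9.6 are named in the submitters' processing notes, with GRCm39 and mm10 as builds of unstated role, while the matrix headers name Cell Ranger 9.0.1. How barcodes were called as cells and which build was counted are not given in the sources used here, so no coordinates or sequences are printed. Libraries held 4137 to 24309 barcodes and 24165563 to 63402551 UMIs over 33696 genes.

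Members and gene lists (19 lists and 12 marker lists of other cell types) were chosen with earlier results of these data known. Member counts were summed per library and tested with edgeR 4.0.16 in R 4.3.3 (quasi-likelihood, two-sided, TMM scaling, filterByExpr), with all 6 libraries in 1 fit, no covariate beside group, 3 residual degrees of freedom, and Benjamini-Hochberg adjustment over the 16198 genes tested at 0.05. Each SE was taken as the absolute fold change over the root of its F statistic. CPM of genes carry the TMM factors, those of summed marker lists do not. The other kept barcodes were fitted the same way, and a joint fit with the library as a block tested the difference between members and the rest. Of these fits, only that of the member counts was run on simulated data. Any kept barcode called as a doublet by Scrublet in scanpy 1.11.5 (14246, of which 2860 members) stayed in and was left out in an alternative, which took the top scores at 0.8% per 1000 barcodes. Libraries shared 0.290 to 0.943% of the smaller library's kept barcodes and at most 6 members.

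Genes were named by rule: called genes with a mean of at least 5 CPM, no overlap between groups and a level above the other barcodes, the 10 highest and 10 lowest fold changes, filled to 16 by the smallest p, with the 2 smallest p of each list, levels of the secretion and carrier lists, Trpm2 and Cebpb. Called genes outside those criteria, and Hmox1, Blvra, Ugt1a1 and Cxcl2, were added after their values were seen. One gene of the position lists is not reported here.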

Additional observations from a re-analysis of the deposited data

Results flagged for a closer look

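Barcodes that the rule left out, because they showed at least 2 genes of other cells beside at least 3 choroid plexus markers, were more frequent in 3 libraries than in either vehicle library. They were 16.6% of barcodes with at least 3 markers in KO bilirubin replicate 1, 59.0% in KO bilirubin replicate 2 and 9.55% in WT bilirubin replicate 1, against 3.61% and 4.62% in the WT vehicle libraries. WT bilirubin replicate 2 had 0.879%. In KO bilirubin replicate 2 the median depth of these barcodes was 16869 UMIs, against 5288 in its members. Their origin was not tested.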

How the results depend on the processing

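With 2 libraries a group and 3 residual degrees of freedom, the number of genes that passed depended on the choices made, and the cause was not tested. For WT bilirubin against WT vehicle, KO bilirubin against WT bilirubin and KO bilirubin against WT vehicle, it was 304, 78 and 116 with no low-count filter, 61, 7 and 13 with DESeq2, 13, 1 and 60 with only the 4 libraries compared, 6, 9 and 15 with at least 4 markers, 137, 16 and 18 with none of the 5 other-cell genes, and 0, 0 and 1 without that exclusion, chosen after seeing the data. Without doublets it was 7 for KO against WT bilirubin. Leaving out each library gave 1 to 469, 1 to 377 and 0 to 158. With the replicate number as a replicate block it was 13 and 5 in the first 2 comparisons and 4 in the third. Same-numbered libraries did not deviate together (r = 0.00669, -0.23 and -0.05). With 2 libraries a group, that cannot exclude a pairing, which the labels do not state. The 0 calls had 1366 and 1218 genes at an unadjusted p under 0.05. The share of KO bilirubin less WT vehicle turned to -1.89 points with none of the other-cell genes and to -8.70 without WT vehicle replicate 1, in a range over left-out libraries of -8.70 to 11.9. Among genes, Trpm2 turned to -0.15 for KO over WT bilirubin without KO bilirubin replicate 2, in a range over left-out libraries of -0.15 to 0.61, and to 0.18 for KO bilirubin over WT vehicle with 4 markers. Ttr turned for KO bilirubin over WT vehicle to -0.089 without the exclusion, -0.15 without WT vehicle replicate 1 and -0.05 without KO bilirubin replicate 1, in a range over left-out libraries of -0.15 to 0.50. WT vehicle replicate 1 gave 320 members and 1016977 of their UMIs, which limits every level set against vehicle.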
